A study of Mus musculus with 2 samples.

Results

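γδ T cells of mouse prostate were taken from 2 droplet single-cell RNA libraries, 1 of prostate tumour tissue and 1 of normal tissue adjacent to tumour. Of 13977 cells that passed the filters on genes and mitochondrial RNA, 774 were members, with 444 of 7768 cells in the tumour library and 330 of 6209 in the normal adjacent library. A member had at least 3 UMIs (unique molecular identifiers, which count captured RNA molecules) over the receptor genes Trdc, Trdv4 and Tcrg-C1, at least 1 of them from Trdc or Trdv4. It also had at least 1 UMI of the CD3 genes Cd3d, Cd3e and Cd3g, none of Cd8a, Cd8b1 or Foxp3, C1q genes and S100a8 with S100a9 each under 0.2% of its UMIs, and at most 1 Cd79a UMI. The labels give the mouse as the species and the tissue of each library, and no strain, genotype, age or number of animals. Both tissues were digested with collagenase I at 1 mg/ml for 45 min and with trypsin, and CD45+ (leukocyte) and CD45- fractions were sorted and run in the same channel. There was 1 library per tissue, so no test between the tissues was possible, and all intervals (95%) cover counting error only.

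γδ T cells carry an antigen receptor of a gamma and a delta chain in place of the alpha and beta chains of conventional T cells. Many leave the thymus already set for a cytokine and settle in skin, gut, lung and reproductive tract, where those set for IL-17 respond to IL-23 and IL-1 without a new encounter with antigen. IL-17A acts on epithelial and stromal cells, which then recruit neutrophils. Trdv4 encodes the delta variable segment that, in mice, pairs with the gamma variable segment Tcrg-V6 in IL-17 cells made before birth. Cd163l1 encodes the scavenger receptor Scart1, a mark of those cells in mice, and 5830411N06Rik encodes its relative Scart2, a mark of mouse IL-17 cells that use Tcrg-V4.

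The members' RNA came to 2746989 UMIs in the tumour and 2242496 in the normal adjacent library, with medians of 4740 and 5529 UMIs and 1840.5 and 1996.5 genes per cell. The comparison cells were 1117 tumour and 1154 normal adjacent T cells with at least 3 UMIs of the alpha and beta chain genes and none of Trdc or Trdv4, called other T cells here. They were deeper, with medians of 5932 and 6546.5 UMIs. The libraries shared 18 cell barcodes, none of them a member. The limits on C1q, S100a8, S100a9 and Cd79a removed 170 tumour and 116 normal adjacent cells that carried CD3 and the receptor genes at the same level. Of the members, 74.5% in the tumour and 80.3% in the normal adjacent library still had a C1q, S100a8 or S100a9 UMI, and 23.9% and 24.2% had an Epcam, Krt8 or Krt18 UMI. Doublets were not removed by a caller.

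Receptor genes chose the cells, so their levels are a description. Trdc, the delta constant gene, was found in 99.8% of tumour and 99.1% of normal adjacent members, with 2317 and 2510 CPM (UMIs of the gene per 1000000 UMIs of the summed cells). Members carried a median of 17 receptor UMIs in the tumour and 21 in the normal adjacent library, up to 72 and 98, so most lay far above the minimum of 3. Just inside it, with 3 UMIs, 13 of 20 tumour and 4 of 12 normal adjacent cells had an Il17a UMI. Just outside it, with 2 UMIs, 6 of 21 and 7 of 21 had one. Trac, the alpha constant gene, was at 0 in 72.3% of tumour and 66.1% of normal adjacent members, and Trdc UMIs outnumbered Trac UMIs in 97.5% and 96.1%. Transcripts of the beta constant genes were common, with Trbc1 at 391 and 473 CPM in tumour and normal adjacent members, against 505 and 633 CPM in other T cells. Cd8a and Cd8b1, which the rule bars, were at 0.

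Trdv4 was found in 58.6% (53.8 to 63.2) of tumour and 70.9% (65.7 to 75.8) of normal adjacent members, a difference of -12.4 percentage points (-18.9 to -5.54). With every cell thinned to 2000 UMIs the shares were 38.3% and 48.4%. Among gamma variable segments, which these 3′ libraries capture thinly, Tcrg-V6 was the most often seen, in 15.1% of tumour and 18.2% of normal adjacent members. It was seen in 2.15% and 0.173% of other T cells. Trgv2 came close, in 13.3% of tumour and 16.7% of normal adjacent members, and was seen in 12.9% and 11.5% of other T cells. Members with Tcrg-V6 had Trdv4 in 80.6% of tumour and 86.7% of normal adjacent cases, against 54.6% and 67.4% of those without it. With members thinned to 2000 UMIs these shares were 59.7% against 34.4% in the tumour and 48.3% against 48.4% in the normal adjacent library, so the normal adjacent difference was not seen at equal depth. Of members with Tcrg-V6, 67 of 67 and 59 of 60 carried Cd163l1, against 73.7% and 75.6% of those without it. Tcrg-V4 was seen in only 20 tumour and 13 normal adjacent members, of which 50.0% and 7.69% carried 5830411N06Rik.

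All T cells here are the 1871 tumour and 1950 normal adjacent cells with a CD3 UMI and the members' limits on C1q, S100a8, S100a9 and Cd79a. Other T cells were 59.7% and 59.2% of these, and some cells were neither members nor other T cells. The members made up 23.7% (21.8 to 25.7) of all T cells in the tumour and 16.9% (15.3 to 18.7) in the normal adjacent library, 6.81 percentage points apart (4.26 to 9.35). As a share of cells with a Ptprc UMI, the gene for CD45, they stood at 6.10% and 5.58%, and the interval of that difference (-0.357 to 1.37) includes 0. The tumour share was higher within T cells. Among cells with Ptprc the difference was within counting error in the cells as chosen, and its interval left out 0 with Trac at 0 in members (0.815 percentage points, 0.0852 to 1.53) and without cells with any C1q, S100a8 or S100a9 UMI (0.474, 0.0529 to 0.889).

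Il17a encodes IL-17A. It had at least 1 UMI in 77.5% (73.3 to 81.3) of tumour and 72.4% (67.3 to 77.2) of normal adjacent members. The difference of 5.05 percentage points (-1.07 to 11.3) was within counting error, and with cells thinned to 2000 UMIs the shares were 66.3% and 64.6%. Without cells with any C1q, S100a8 or S100a9 UMI, which leaves 113 tumour and 65 normal adjacent members, the shares were 84.1% and 69.2% and the difference of 14.8 percentage points (2.22 to 28.1) was past counting error. Other T cells had an Il17a UMI in 20.1% of tumour and 21.0% of normal adjacent cells. Among those, cells without Cd4, Cd8a, Cd8b1 and Foxp3 had the highest shares, 30.6% and 32.8%, ahead of CD4 cells with 26.6% and 20.9% and CD8 cells with 6.86% and 10.4%. Cells that should lack the gene give the background of free RNA. It was 3.86% and 5.09% in macrophages, with medians of 9390 and 7730 UMIs, and 2.23% and 4.83% in neutrophils, with medians of 2307 and 2878 UMIs. The members' shares lay far above both. Summed, Il17a was at 2308 and 2178 CPM in tumour and normal adjacent members, against 456 and 405 CPM in other T cells.

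**Figure D1:**
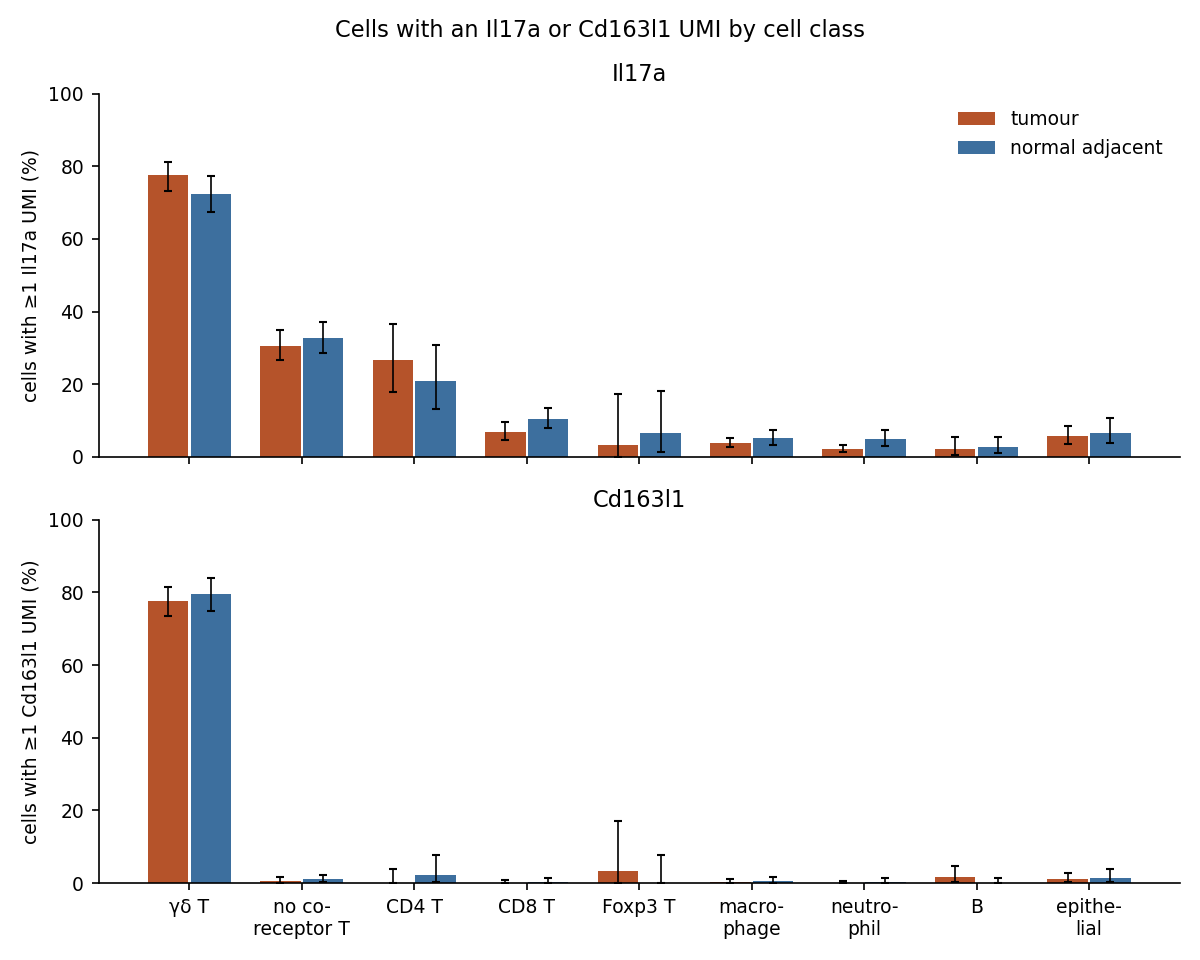
Share of cells (%, y axis) with at least 1 UMI of Il17a (top) or Cd163l1 (bottom) in each cell class (x axis), tumour left and normal adjacent right, with exact 95% binomial intervals. Il17a was found in 77.5% and 72.4% of γδ T cells and in fewer cells of every other class drawn, and Cd163l1 was close to 0 outside γδ T cells.

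Among the members the Il17a message was uneven. Tumour members had a median of 6 Il17a UMIs with quartiles of 1 and 19 and a highest value of 119, and normal adjacent members a median of 6 with quartiles of 0 and 18 and a highest value of 149. The 45 tumour cells and 33 normal adjacent cells with the most Il17a held 47.0% and 46.8% of all Il17a UMIs of the members. Il17f, which lies beside Il17a and encodes its closest relative, was found in 11.5% of members in each library. Members with Il17f had Il17a in 90.2% of tumour and 94.7% of normal adjacent cases.

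Ifng, which encodes interferon gamma, was found in 5.18% of tumour and 9.09% of normal adjacent members, against 28.0% and 33.3% of other T cells. Its difference between the tissues in members was -3.91 percentage points (-7.88 to -0.29) on all UMIs and -1.50 (-4.42 to 0.970) after thinning, so at equal depth it was within counting error. Il17a without Ifng was seen in 74.1% of tumour and 68.8% of normal adjacent members, both together in 3.38% and 3.64%, Ifng alone in 1.80% and 5.45%, and neither in 20.7% and 22.1%. Cd27, a receptor of the tumour necrosis factor family that in mice is kept by interferon gamma producing γδ T cells, was present in only 30 tumour and 31 normal adjacent members. Il17a was found in 40.0% and 19.4% of these, against 80.2% and 77.9% of members without Cd27.

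Cd163l1 was not part of the rule. It was found in 77.7% of tumour and 79.7% of normal adjacent members, with 1515 and 1288 UMIs or 552 and 574 CPM. Other T cells had 7 and 11 UMIs of it, or 0.744 and 1.05 CPM. It followed the delta chain: 95.4% of tumour and 93.6% of normal adjacent members with Trdv4 carried Cd163l1, against 52.7% and 45.8% of those without. 5830411N06Rik went the other way, in 1.92% and 1.28% of members with Trdv4, against 30.4% and 13.5% of those without. Because Il17a and Cd163l1 were named with the cell type, their contrast with other T cells is a description, with log2 fold changes of 2.39 and 9.27. They stayed in the fit, and the counts of called genes below include them.

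The promoters of the cytokine genes Il17a and Il17f and the scavenger receptor genes Cd163l1 and 5830411N06Rik are shown. Each is the 250 bases before the start in RefSeq (GRCm38.p6), 5′ to 3′ on the gene's strand. Capitals mark TATAAA or its reverse complement TTTATA, the letters of the TATA box at which the general transcription machinery is placed. Of 32851 promoters of that length 12.4% hold it, on either strand, so a match is common and is a description only. Il17a lies at chr1:20730655-20730904 on the plus strand and Il17f at chr1:20784271-20784520 on the minus strand. Cd163l1 lies at chr7:140218017-140218266 and 5830411N06Rik, at the first of 3 listed starts, at chr7:140247051-140247300, both on the plus strand.
Il17a: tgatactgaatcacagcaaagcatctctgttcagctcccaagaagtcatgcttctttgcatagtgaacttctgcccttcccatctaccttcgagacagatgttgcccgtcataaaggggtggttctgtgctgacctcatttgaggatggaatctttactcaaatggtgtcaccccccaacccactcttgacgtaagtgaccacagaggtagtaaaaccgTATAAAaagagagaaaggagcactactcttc
Il17f: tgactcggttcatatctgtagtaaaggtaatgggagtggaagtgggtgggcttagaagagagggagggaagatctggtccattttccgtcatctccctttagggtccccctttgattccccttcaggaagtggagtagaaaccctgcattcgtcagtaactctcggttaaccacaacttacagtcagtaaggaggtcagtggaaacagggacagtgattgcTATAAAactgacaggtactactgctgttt
Cd163l1: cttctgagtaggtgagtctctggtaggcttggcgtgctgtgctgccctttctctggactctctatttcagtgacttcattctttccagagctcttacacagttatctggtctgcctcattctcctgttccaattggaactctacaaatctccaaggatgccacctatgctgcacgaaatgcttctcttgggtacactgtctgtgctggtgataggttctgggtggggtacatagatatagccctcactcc
5830411N06Rik: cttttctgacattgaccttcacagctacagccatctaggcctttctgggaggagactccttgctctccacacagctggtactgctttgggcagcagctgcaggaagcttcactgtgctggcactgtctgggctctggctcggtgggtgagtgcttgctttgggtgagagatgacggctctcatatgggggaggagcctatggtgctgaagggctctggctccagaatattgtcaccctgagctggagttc
The Il17a match starts 31 bases before the gene and the Il17f match 29 bases before it, and the windows of Cd163l1 and 5830411N06Rik hold none.

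Cd163l1 and 5830411N06Rik split the members into groups with some overlap, a split chosen after the values were seen. Cd163l1 without 5830411N06Rik marked 332 tumour members (74.8%) and 260 normal adjacent members (78.8%). 5830411N06Rik without Cd163l1 marked 48 tumour members (10.8%, 8.08 to 14.1) and 13 normal adjacent members (3.94%, 2.11 to 6.64), and these intervals do not overlap. Both genes were seen in 13 and 3 cells, out of 61 tumour and 16 normal adjacent members with 5830411N06Rik. Neither was seen in 51 (11.5%) and 54 (16.4%). Over all members 5830411N06Rik was found in 13.7% in the tumour and 4.85% in the normal adjacent library, 8.89 percentage points apart (4.81 to 12.9), and 5.46 (1.94 to 8.87) after thinning. In other T cells it was found in 4.66% and 3.29%.

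Il17a was found in 80.7% of tumour and 82.3% of normal adjacent cells of the Cd163l1 group and in 91.7% and 76.9% of the 5830411N06Rik group, against 43.1% and 22.2% of the cells with neither. The cells with neither were deeper than the Cd163l1 group, with medians of 7080 and 6564.5 UMIs, against 4670.5 and 5369.5. Trdv4 was found in 73.8% and 83.5% of the Cd163l1 group, 4.17% and 7.69% of the 5830411N06Rik group and 19.6% and 25.9% of the cells with neither. Their receptor load differed too, with medians of 21 and 25 receptor UMIs in the Cd163l1 group, 6 and 5 in the 5830411N06Rik group and 8 and 9 in the cells with neither.

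**Figure D2:**
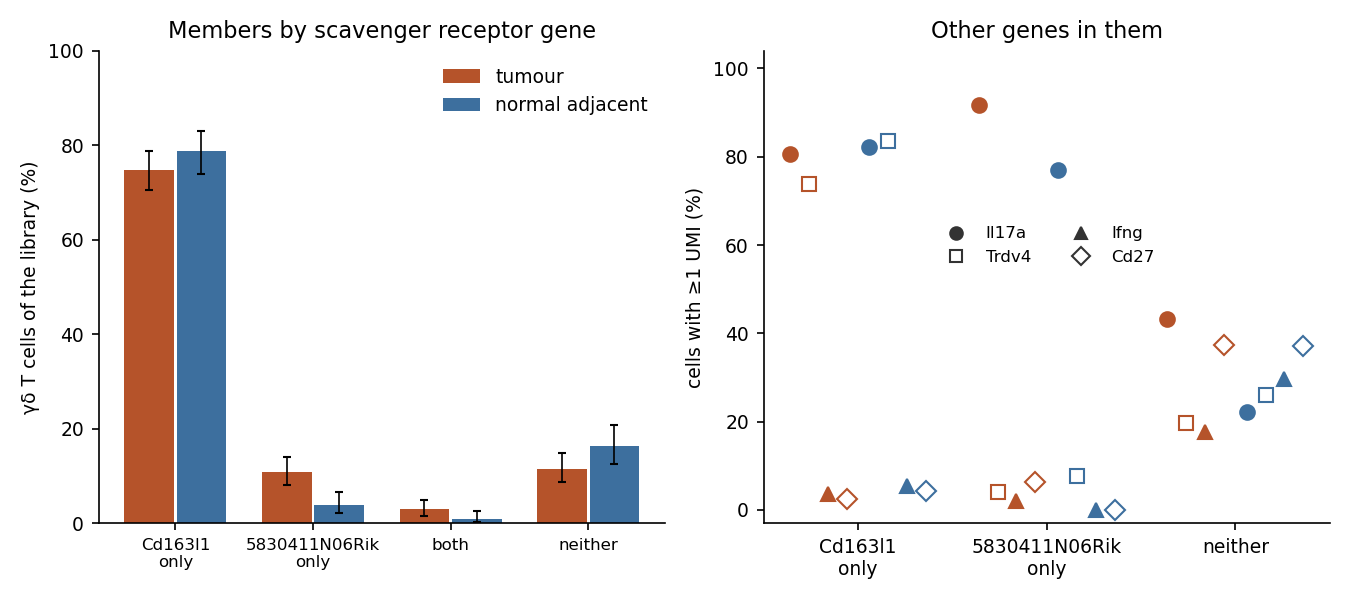
Left, share of γδ T cells of each library (%, y axis) with Cd163l1 only, 5830411N06Rik only, both or neither, with exact 95% binomial intervals. Right, share of the cells of 3 of these groups (%, y axis) with at least 1 UMI of Il17a, Trdv4, Ifng or Cd27, tumour in orange and left, normal adjacent in blue and right. Il17a was found in 80.7% and 82.3% of cells with Cd163l1 only and in 43.1% and 22.2% of cells with neither gene.

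The groups differed in other genes as well, given as descriptions because they were defined on the same cells. The 5830411N06Rik group held 48 tumour and 13 normal adjacent cells. The 13 had a median of 5128 UMIs, so their CPM values rest on little RNA. The 5830411N06Rik group had little Pdcd1, the gene of the inhibitory receptor PD-1, with 37.6 CPM in the tumour and 15.2 CPM in the normal adjacent library, against 173 and 162 CPM in the Cd163l1 group. S1pr1, the receptor that guides T cells out of tissue, was at 128 and 183 CPM in the 5830411N06Rik group and 57.9 and 38.3 CPM in the Cd163l1 group. Cxcr6, a chemokine receptor of tissue resident lymphocytes, was at 338 and 427 CPM, against 767 and 720 CPM. Ly6c2, a surface protein of circulating and effector cells, was at 138 CPM in tumour cells of the 5830411N06Rik group and 11.9 CPM in those of the Cd163l1 group, and the normal adjacent 5830411N06Rik group, with 13 cells, had none.

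The cells with neither gene carried cytotoxic genes. Ccl5, a chemokine for T cells and monocytes, was at 4222 CPM in the tumour and 5150 CPM in the normal adjacent library, against 387 and 457 CPM in the Cd163l1 group. Gzmb, which encodes granzyme B, was at 1154 and 2020 CPM, against 189 and 81.4 CPM, and Tbx21, the T-bet gene of the type 1 program, at 74.8 and 114 CPM, against 15.7 and 12.1 CPM. Markers of natural killer (NK) cells moved with them: Ncr1 was at 74.8 and 68.7 CPM, against 8.65 and 2.43 CPM, and 41.2% and 55.6% of the cells with neither gene had an Ncr1, Klrb1c, Eomes or Klra8 UMI, against 3.92% and 4.23% of the Cd163l1 group. Median CD3 UMIs were 15 and 25.5 in them, against 14 and 15 in the Cd163l1 group, and were not set to equal depth. Median UMIs per cell were 7080 and 6564.5, against 4670.5 and 5369.5. The part of NK cells or of doublets in this group was not tested.

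Between members and other T cells, UMIs were summed per library and class and compared with edgeR's quasi-likelihood test, with the library as a block. The tumour and the normal adjacent library were the only replication, which leaves 1 residual degree of freedom and a spread estimated across genes, so p-values measure agreement of 2 libraries from different tissues. Of 11660 genes tested, 788 (6.76%) were higher and 568 (4.87%) lower in γδ T cells at a Benjamini-Hochberg adjusted p under 0.05. Genes of the rule for members and receptor segments stayed in the fit, so the counts include genes whose direction the rules for the cells had fixed. DESeq2 called 386 and 223, and with cells that had any C1q, S100a8 or S100a9 UMI left out 312 and 274 were called.

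The 12 genes named for the largest difference above other T cells, among those with at least 50 CPM in γδ T cells, include receptors and a kinase. Blk, a kinase of the Src family best known in B cells and found in mouse γδ T cells, was at 256 CPM in tumour and 207 CPM in normal adjacent members, against 18.9 and 16.9 CPM in other T cells (log2 fold change 3.70 ± 0.09 SE, edgeR adjusted p = 1.6e-05). Aqp3, a channel for water and glycerol, was at 226 and 224 CPM, against 28.8 and 34.3 CPM (2.85 ± 0.09 SE, edgeR adjusted p = 5.69e-05). Cryba4, a lens crystallin gene, was at 91.4 and 106 CPM, against 6.27 and 7.64 CPM. Il1r1, the receptor for IL-1, was at 121 and 132 CPM, against 24.5 and 22.3 CPM, and Il23r, a chain of the IL-23 receptor, at 57.2 and 56.2 CPM, against 12.01 and 10.41 CPM. Abi3bp, Rbpms2, Dkk3, Kcnk1 and Serpinb1a were also among the 12, with log2 fold changes of 2.34 to 3.08.

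On the other side, Gzmk, a granzyme of memory CD8 T cells, was at 1.46 and 1.78 CPM in tumour and normal adjacent members, against 64.0 and 90.0 CPM in other T cells. Tnfrsf4, the costimulatory receptor OX40, was at 6.19 and 7.58 CPM, against 84.8 and 176 CPM (log2 fold change -4.17 ± 0.17 SE, edgeR adjusted p = 0.000112). Cd28, the main costimulatory receptor of conventional T cells, was at 18.9 and 34.3 CPM, against 217 and 239 CPM, and Cd6, an adhesion receptor of T cells, at 6.92 and 13.4 CPM, against 87.8 and 96.7 CPM. Rgs16, Gzma, Ifi27l2a, Ifng, Gimap7, Cd27, Ccl5 and Hist1h1b completed the 12, with log2 fold changes of -2.66 to -2.10. Other T cells include CD8 cells, which the rule keeps out of the members, and Gzmk was at 139 and 143 CPM in those and 4.12 and 10.4 CPM in other T cells without coreceptor.

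**Figure D3:**
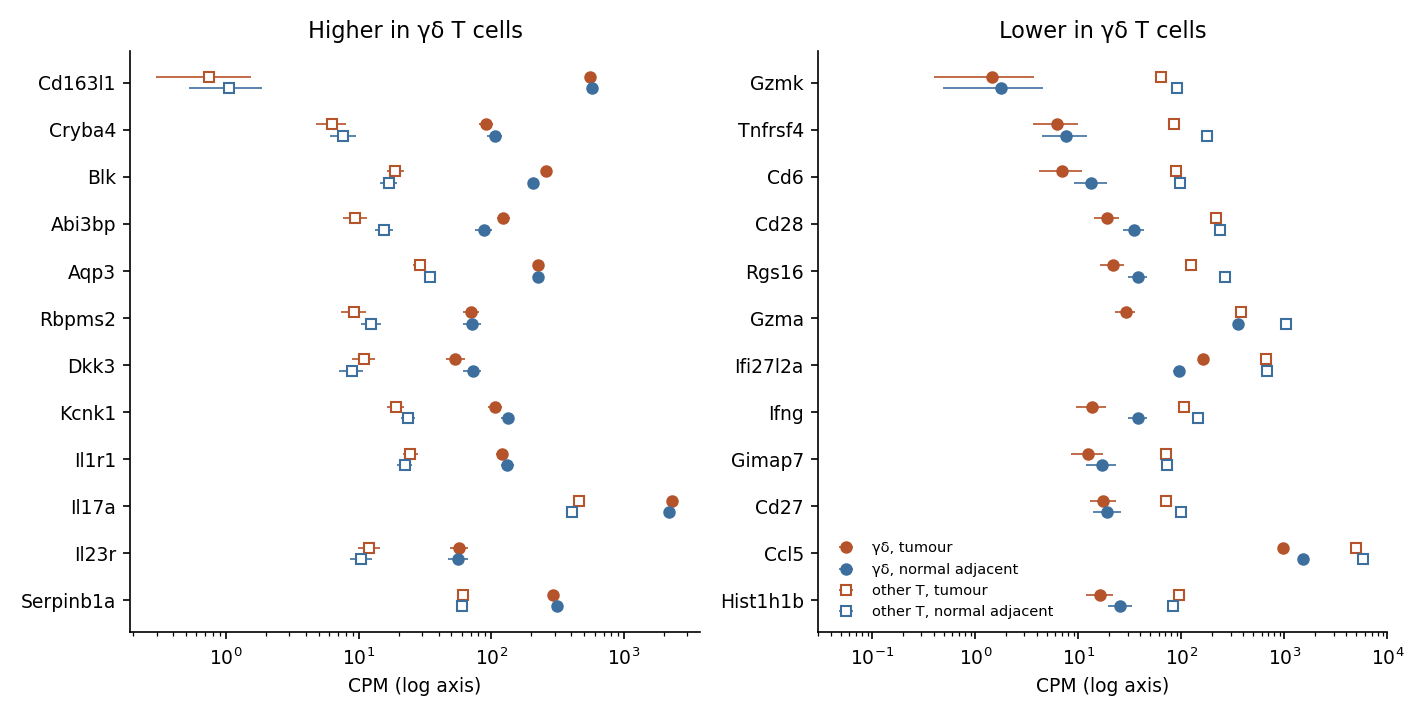
CPM (log axis) of the 12 genes with the largest log2 fold change each way, among called genes with at least 50 CPM in the higher class, between γδ T cells (filled circles) and other T cells (open squares), tumour in orange and normal adjacent in blue, with exact 95% Poisson intervals. For each gene the γδ values of both libraries lie on the same side of the other T cell values, as the rule for choosing them required.

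Of 21 genes of the type 17 program, 19 rose, Lgals3 fell and Ccr6, a chemokine receptor, was not called (log2 fold change -0.34). The 19 include Il17a, Cd163l1 and 5830411N06Rik, and also Blk, Aqp3, Il1r1 and Il23r, named above for their large difference. The gene lists here and below were chosen with earlier results of these data known, so their counts are a description. The list had a median of 1.75 beside -0.01 over all genes tested, of which 6.76% were called higher and 4.87% lower. Against other T cells without Cd8a, Cd8b1 and Foxp3, where 5.74% of all genes tested were higher and 4.66% lower, 18 were higher and 2, Lgals3 and Ccr6, lower, with a median of 0.94. Sox13, a transcription factor that IL-17 producing γδ T cells need in mice, was at 40.4 and 29.0 CPM in tumour and normal adjacent members, against 0.638 and 0.668 CPM in other T cells (log2 fold change 5.68 ± 0.29 SE, edgeR adjusted p = 0.000218). Zbtb16, the gene of PLZF, which marks innate-like T cells, was at 110 and 98.1 CPM, against 32.8 and 29.3 CPM (edgeR adjusted p = 0.000218). Il17f rose by the test over all other T cells (1.75, edgeR adjusted p = 0.00926) but not over those without Cd8a, Cd8b1 and Foxp3 (0.89, adjusted p = 0.0574).

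Of the 17 type 1 and cytotoxic genes, 14 were lower in γδ T cells, Klrk1 was higher and Ncr1 and Cxcr3 were not called. The median was -1.35, and of all genes tested 4.87% were lower and 6.76% higher. The same list gave 15 lower and 0 higher by edgeR against other T cells without Cd8a, Cd8b1 and Foxp3. Of all genes tested there, 4.66% were lower and 5.74% higher. The difference was thus also present against cells without a Cd8a, Cd8b1 or Foxp3 UMI. Such cells can include CD8 cells whose Cd8a and Cd8b1 RNA was missed, and their part was not tested. Nkg7, a protein of cytotoxic granules, was at 271 and 448 CPM in tumour and normal adjacent members, against 1248 and 1477 CPM in other T cells (-1.95 ± 0.12 SE, edgeR adjusted p = 0.000447). Eomes, a transcription factor of CD8 and NK cells, was at 1.09 and 6.69 CPM, against 31.9 and 37.1 CPM. The summed NK markers were at 75.0 and 425 CPM in members, against 512 and 1214 CPM in other T cells, with none of the 6 at 0.

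Of 15 tested effector cytokine genes, 8 rose, Ifng fell and 6 were not called, beside 6.76% higher and 4.87% lower of all genes tested. The 8 were Il17a, Il17f, Il22, Tnf, Areg, Ltb, Tnfsf11 and Tnfsf14. Against other T cells without Cd8a, Cd8b1 and Foxp3, 5 were higher (Il17a, Il22, Tnf, Areg and Ltb) and Ifng and Il2 lower. Tnfsf11 turned to a log2 fold change of -0.23. That comparison called 5.74% of all genes tested higher and 4.66% lower. Areg, which encodes the epithelial growth factor amphiregulin, was at 127 CPM in tumour and 175 CPM in normal adjacent members, against 59.5 and 59.8 CPM in other T cells (1.33 ± 0.12 SE, edgeR adjusted p = 0.00152). Tnf was at 55.7 and 62.0 CPM, against 20.8 and 30.9 CPM. Of 17 cytokine receptor genes 7 rose and 3 fell against all other T cells, beside 6.76% and 4.87% of all genes tested. Il7r, the IL-7 receptor that supports T cell survival, was at 635 and 512 CPM, against 196 and 170 CPM (1.66 ± 0.08 SE, edgeR adjusted p = 0.000177). Il2ra, a chain of the IL-2 receptor, was at 112 and 106 CPM, against 40.8 and 45.4 CPM.

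Costimulation and inhibition were split. Of 14 such genes, 9 fell, Pdcd1 and Icos rose and 3 were not called. The median was -1.54, and of all genes tested 4.87% were lower and 6.76% higher. Icos, a costimulatory receptor, was at 692 and 706 CPM in tumour and normal adjacent members, against 329 and 347 CPM in other T cells (1.06 ± 0.07 SE, edgeR adjusted p = 0.000558). Pdcd1 was at 129 and 129 CPM, against 65.9 and 93.1 CPM (0.73 ± 0.12 SE, edgeR adjusted p = 0.0135), with CD8 cells at 106 and 130 CPM. Ctla4 and Lag3, which restrain T cells, fell, Ctla4 to 40.8 and 55.3 CPM in members, against 141 and 202 CPM in other T cells.

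Of 12 genes of receptor signalling, Cd247, Zap70, Lat and Blk rose and Lck, Cd2, Cd6, Ptprc and Themis fell. Lck, the kinase that starts signalling from CD4 and CD8, was at 42.6 and 60.2 CPM in tumour and normal adjacent members, against 208 and 215 CPM in other T cells (-2.05 ± 0.12 SE, edgeR adjusted p = 0.000362). Among chemokine receptors Ccr2, Cxcr4 and Cxcr6 rose and Ccr1, Ccr7 and Ccr8 fell. Of 14 residency and egress genes 5 rose, among them Cxcr6 and Itgb7, and Itga1 and Ccr7 fell. Of 20 lineage transcription factors 5 rose and 4 fell. Each list count of this paragraph stands beside 6.76% of all genes tested called higher and 4.87% called lower.

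Lists of general cell state are set beside the 6.76% of all tested genes called higher and the 4.87% called lower, 11.6% in either direction. Of 15 immediate early and heat shock genes Fos, Jun, Junb and Ier2 rose and Hspa1a fell. Glycolysis and hypoxia genes gave 3 higher and 1 lower of 14, oxidative phosphorylation 1 and 1 of 12, interferon induced genes 1 and 2 of 11, lipid genes 0 and 3 of 11 and cell cycle genes 0 and 2 of 11.

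**Figure D4:**
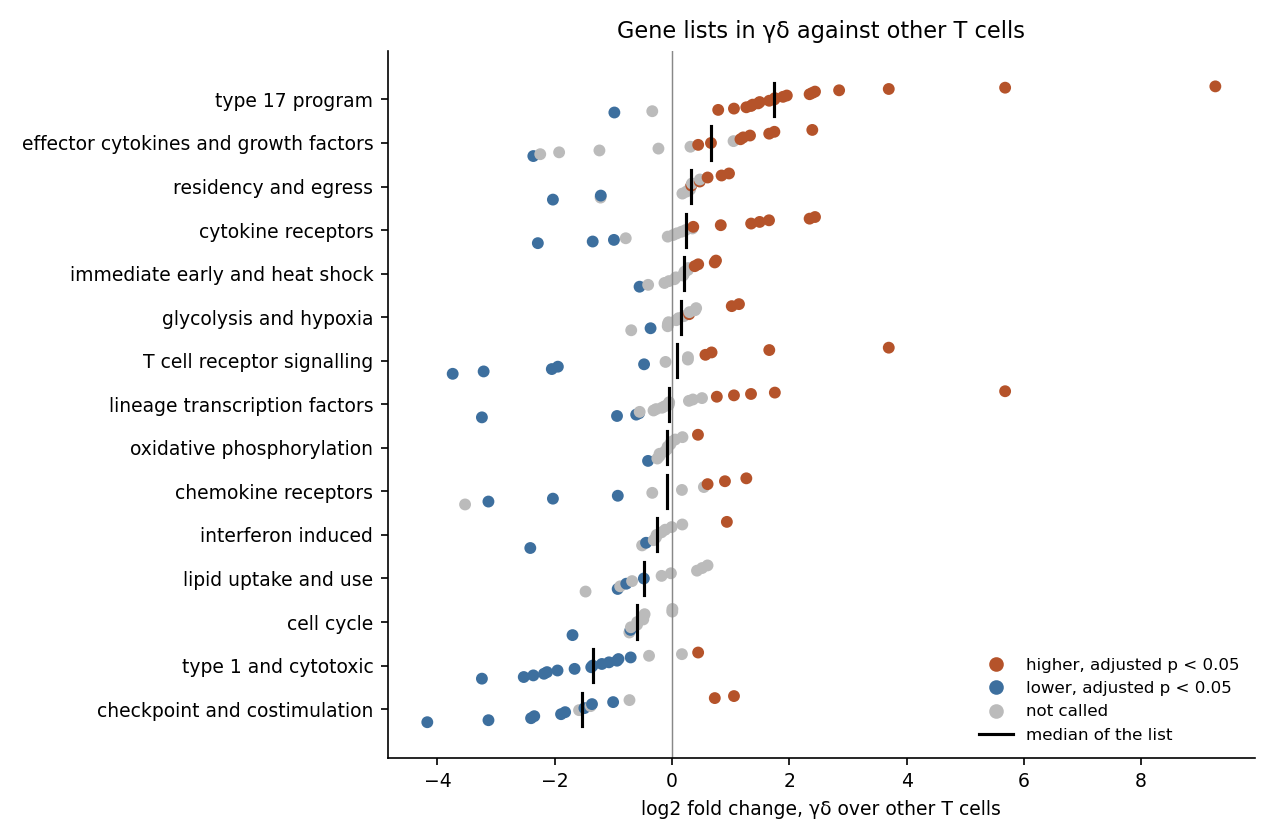
Log2 fold change of each tested gene of 15 lists between γδ and other T cells (x axis), 1 point per gene, with black bars at the median of the list. Orange points were called higher and blue points lower by edgeR at an adjusted p under 0.05. The type 17 list has the highest median (1.75) and the checkpoint and costimulation list the lowest (-1.54).

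Between the tissues, most type 17 genes of γδ T cells were at ratios near 1 and most type 1 and cytotoxic genes were lower in the tumour. Of 9632 genes with at least 20 UMIs, 8.73% were over 1.5-fold higher and 5.36% over 1.5-fold lower in tumour members. Of the 21 type 17 genes, only 5830411N06Rik was past that fold upward and Il22 downward, with a median log2 ratio of 0.06 beside 0.02 over all genes. Il17a stood at a tumour over normal adjacent ratio of 1.06 (1.02 to 1.10) and Cd163l1 at 0.960 (0.891 to 1.03). 5830411N06Rik was at 65.2 CPM in tumour and 21.9 CPM in normal adjacent members, a ratio of 2.98 (2.16 to 4.18), and the ratio in other T cells lay between 1.14 and 1.99. For Il22, 56.5% of the tumour UMIs and 34.9% of the normal adjacent UMIs came from 1 cell.

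Of the 17 type 1 and cytotoxic genes, 16 had enough UMIs, and 11 of these were over 1.5-fold lower in tumour members and 0 over 1.5-fold higher, with a median log2 ratio of -0.67. Nkg7 was at 271 CPM in tumour and 448 CPM in normal adjacent members (ratio 0.605, 0.550 to 0.666), Xcl1, a chemokine for dendritic cells, at 371 and 694 CPM (0.534, 0.493 to 0.579) and Ifng at 13.5 and 37.9 CPM (0.355, 0.235 to 0.529). Of the normal adjacent Ifng UMIs, 27.1% came from 1 cell, and the share of members with Ifng differed within counting error at equal depth. Gzma was at 28.8 and 351 CPM, with 57.0% of the tumour UMIs in 1 cell. In other T cells 3 of 17 were past the fold downward and 0 upward, with a median of -0.21, beside 4.43% of all genes with at least 20 UMIs there downward and 6.29% upward. Xcl1 and Gzmb were higher there in the tumour, at ratios of 1.24 and 1.11.

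The same counts are given for the groups by scavenger receptor gene, whose difference was not tested. Within cells with Cd163l1 only, 3 of 15 measured type 1 genes were past the fold downward and 3 upward, with a median of -0.05, beside 6.33% and 8.43% of all genes measured in those cells. Within cells with neither scavenger receptor gene, 51 and 54 cells, 8 of 16 were past it downward and 0 upward, with a median of -0.53, beside 10.1% and 11.9% of all genes. Summed NK markers were at 75.0 CPM in tumour and 425 CPM in normal adjacent members, and without Gzma at 46.2 and 74.0 CPM. Of these markers, 5 of 6 are also in the type 1 list. Ncr1 was at 19.3 and 17.4 CPM and Klrb1c at 19.3 and 17.8 CPM, not lower in the tumour. The other NK markers were lower there. Prf1 was at 5.82 CPM in tumour and 24.1 CPM in normal adjacent members and Gzma at 28.8 and 351 CPM. Eomes was at 1.09 and 6.69 CPM and Klra8 at 0.728 and 8.03 CPM, both from few UMIs. Without T cells that had an Ncr1, Klrb1c, Eomes or Klra8 UMI, 10 of 12 measured type 1 genes were past the fold downward. The median was -1.12, beside 6.19% of all genes downward and 9.53% upward. Ncr1, Klrb1c and Eomes are in the type 1 list and this choice sets them to 0. They are therefore not among the 12, and this count cannot be set against that over all members. The part of NK cells in the type 1 difference was not tested.

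**Figure D5:**
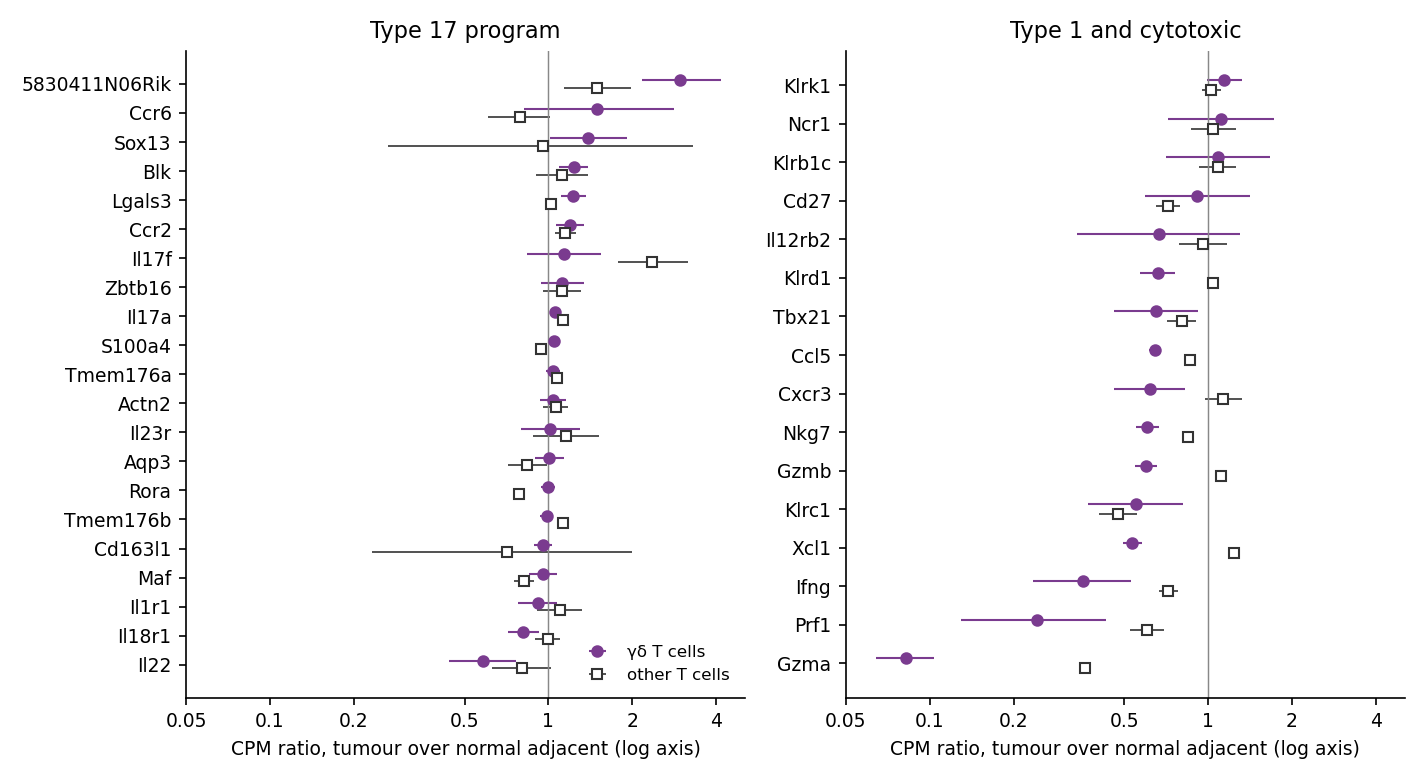
Ratio of CPM, tumour over normal adjacent (log axis), for genes of the type 17 list (left) and of the type 1 and cytotoxic list (right) with at least 20 UMIs in γδ T cells (filled circles) and in other T cells (open squares), with exact 95% intervals that cover counting error only. Type 17 genes lie around 1 with 5830411N06Rik above (2.98), and 11 type 1 genes lie past 1.5-fold below 1 in γδ T cells.

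By the rule for naming single genes between the tissues, the highest in tumour members were Svs2, Svs4, Pate4, Spinkl, Svs5, Cdo1, Serping1 and Sfrp1. Svs2, Svs4 and Svs5 encode proteins secreted by the seminal vesicle, and for each of the 8 genes 32.6% or more of the tumour UMIs came from 1 cell. The lowest were Gzmf, Gzma, Gzmc, Klra7, Sfn, Osgin1, AA467197 and Idh3b, and for Gzmf, a granzyme gene, 59.3% of the normal adjacent UMIs came from 1 cell. The next genes had at most 10% of the UMIs of the library where they were higher from 1 cell, a limit chosen after the values were seen. Ybx3, an RNA-binding protein gene, was at 84.1 CPM in tumour and 46.8 CPM in normal adjacent members (1.80, 1.42 to 2.28) and at a ratio of 1.69 in other T cells. Klra7, an NK receptor gene of the Ly49 family, was at 33.5 and 98.1 CPM (0.341, 0.265 to 0.437), in 17 and 37 cells, while other T cells stood at 1.27. Osgin1, an oxidative stress response gene, was at 33.1 and 81.6 CPM (0.406, 0.312 to 0.525) and Idh3b, a citric acid cycle gene, at 35.7 and 84.7 CPM (0.421, 0.327 to 0.540), with other T cells at 0.811 and 0.471.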

How the data were processed

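Droplet single-cell RNA sequencing measured 1 tumour and 1 normal adjacent library of mouse prostate. The deposited values are UMI counts for each feature in each barcode, not normalized, and Cell Ranger 4.0.0 made them, per the file headers. The authors' R 4.0.3 and Seurat 3.2.2 are named in the submitters' processing notes, which list GRCh38. Which mouse build and annotation served for counting was not given in the sources used here. Each library has 32285 features, with 8237 tumour and 6553 normal adjacent barcodes and 92188538 and 77855775 UMIs.

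Barcodes with under 200 genes or over 20% mitochondrial UMIs were removed (469 and 344). No doublet caller was run. Cell classes were set by UMI thresholds on marker genes. The members, gene lists and tests were chosen with earlier results of these data known. UMIs summed per library and class were compared between members and other T cells with edgeR 4.0.16 (R 4.3.3, TMM, filterByExpr, quasi-likelihood test, library as block, Benjamini-Hochberg over all tested genes), checked on simulated data, with DESeq2 1.42.0 as an alternative. Named genes were the 12 with the largest log2 fold change each way among those called, with the same sign in both libraries, at least 50 CPM in the higher class and at least 0.1 of the CPM over all cells there. Other list members were named for their role. Between tissues there was no test. The 8 genes each way with the ratio interval farthest from 1, at least 50 UMIs and 50 CPM in the higher library were named. Genes of the rule for members, antigen receptor, mitochondrial, ribosomal and haemoglobin genes, genes with Gm or Rik names and those linked to sex could not be named by either rule. Some genes are not reported here and are in none of the lists. Shares have exact Clopper-Pearson intervals (a share of 0 is given with the limit of 3 cells), differences of shares Newcombe intervals, CPM exact Poisson intervals and ratios conditional binomial intervals, all at 95%, which cover counting error only. List medians add 0.5 UMIs and use genes with at least 20 UMIs. Scripts used Python 3.11.15, NumPy 2.4.6, SciPy 1.17.1, pandas 2.3.3 and matplotlib 3.10.9.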

Additional observations from a re-analysis of the deposited data

Results flagged for a closer look

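With 1 library per tissue, a ratio of γδ over other T cells was set aside where its counting interval lay above 1 in 1 library and below 1 in the other. The difference between the libraries was not tested, and no test was possible. Penk, which encodes proenkephalin, was at a ratio of 1.57 (1.18 to 2.07) in the tumour and 0.00695 in the normal adjacent library, from 28.0 and 17.9 CPM in tumour γδ and other T cells and 0.446 and 64.2 CPM in normal adjacent ones. In tumour members 54.5% of the Penk UMIs came from 1 cell. Bst2, an interferon induced gene, was at 1.11 in the tumour and 0.882 in the normal adjacent library. Rrm2, a gene of DNA synthesis, was at 0.599 and 1.66. Markers of other cell types did the same. Dcn, a fibroblast gene, was at 1.29 in the tumour and 0.290 in the normal adjacent library, Krt8 of luminal epithelium at 1.59 and 0.542, Krt14 of basal epithelium at 0.277 and 31.9, and Krt5 of the same layer at 0.207 and 22.2. In normal adjacent members 1 cell held 63.4% of the Dcn, 64.8% of the Krt8, 76.8% of the Krt14 and 76.3% of the Krt5 UMIs, and in tumour members 33.9%, 33.0%, 70.0% and 83.3%. The summed fibroblast markers were at 507 CPM in tumour and 57.5 CPM in normal adjacent γδ T cells, and their part in other results was not tested.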

How the results depend on the processing

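The higher share of γδ T cells among T cells in the tumour kept its direction under all 7 other settings run, from 5.95 to 10.7 percentage points. It moved past counting error only when cells with any C1q, S100a8 or S100a9 UMI were left out (10.7), and there the Il17a share difference was 14.8 (2.22 to 28.1), past counting error. Leaving out T cells with an Ncr1, Klrb1c, Eomes or Klra8 UMI, chosen after seeing the data, gave 8.21 and 2.29. No paired analysis was possible because the tissues share fewer than 2 replicate numbers. In γδ against other T cells, the fit with no replicate block, that is without the library as a block, called 643 genes higher and 420 lower, of which 625 and 401 were also called with it. DESeq2 called 386 and 223, of which 384 and 218 were shared. Leaving out cells with any C1q, S100a8 or S100a9 UMI gave 312 and 274, of which 301 and 227 were shared, with fewer cells. No low count filter gave 996 and 1299. Over 59 named genes, 812 of 882 values were counted as the same. For a refit this meant the same direction and side of the threshold. For 1 library alone, which has no test, it meant a log2 fold change close to the main one, judged by its SE. Against other T cells without Cd8a, Cd8b1 and Foxp3 the log2 fold change turned to -0.47 for Csf2, -0.23 for Tnfsf11, -6.7e-05 for Il2rb and -0.24 for Tcf7. Without cells with C1q, S100a8 or S100a9 it turned to -0.0065 for Il2rb and -0.13 for Itgae. Between tissues, the log2 ratio of some of the named genes changed sign. With a receptor minimum of 2 the log2 ratio was -0.83 for Svs4, -0.28 for Spinkl, -1.64 for Svs5 and -0.44 for Cdo1. With Trac at 0 it was -1.70, -1.07 and -1.50 for Svs4, Spinkl and Svs5 and 0.71 for Sfn. Without cells with C1q, S100a8 or S100a9 it was -0.48 for Svs4 and -0.58 for Svs5, and without T cells with NK markers 0.32 for Gzmf. The cause was not tested. Depth limits the gamma variable segments and the Ifng share, among others.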

Other observations

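A gamma chain gene marked part of the CD8 T cells of the tumour. Tcrg-C1, the gamma constant gene of the rule for γδ T cells, was found in 39.4% of 452 tumour CD8 cells and 10.4% of 491 normal adjacent CD8 cells, 29.0 percentage points apart (23.7 to 34.2), at 145 and 21.0 CPM. These cells are not members, because the rule bars Cd8a and Cd8b1 and the comparison cells have no Trdc or Trdv4. Trav4-4-dv10, a variable segment that can serve alpha or delta chains, was found in 103 of the tumour CD8 cells (22.8%) and in 0 of 491 normal adjacent ones, which allows a share of cells with a UMI of up to 0.611% (3 cells of 491) and does not show that the segment was absent. It was found in 0 of 444 tumour and 0 of 330 normal adjacent γδ T cells. Tcrg-C1 was present in 84.5% (76.0 to 90.9) of the tumour CD8 cells with Trav4-4-dv10, against 26.1% (21.5 to 31.0) of those without it.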
